A study of Mus musculus with 4 samples.

Results

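The genes *Dazl*, *Boll*, *Dnd1*, *Elavl2*, *Cpeb1*, *Ddx25*, *Rbm46* and *Pum2*, which encode RNA-binding proteins of germ cells, were followed in whole testes of control and Mps1sKO mice by RNA sequencing. They were taken by gene symbol, with earlier results of these data known, and are 8 of 55820 loci in the table of counts. All 8 were among the 20561 loci with enough counts to be tested. At P10, 7 of the 8 genes had a lower mean level in Mps1sKO testes, at 65.1% to 81.4% of control, and *Pum2* stood at 105% of control. None of the 8 passed an adjusted p below 0.05 with edgeR, and *Ddx25* alone passed the cut-offs that the study states, which ask for more than a 1.5-fold difference and p below 0.01 before adjustment.

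RNA-binding proteins govern much of male germ cell development, because germ cells store many mRNAs and time their translation or decay after transcription. Some of these proteins favour translation by extending or protecting the poly(A) tail, and others recruit deadenylases that shorten it. Several members of this group are needed for germ cells to survive, to enter meiosis or to complete it.

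The testes came from male C57BL/6J mice at postnatal day 10, when the first germ cells are entering meiosis, with 2 libraries from control and 2 from Mps1sKO mice. In Mps1sKO mice a *Stra8*-Cre transgene, active from early spermatogonia, removes floxed exons of *Mps1* (gene symbol *Ttk*), which encodes a kinase of the spindle assembly checkpoint. Neither the *Mps1* alleles nor the Cre status of the control mice is given in the labels, and it is not stated whether a library came from 1 mouse, so p-values measure the spread between these libraries. The libraries held 23311689 to 28607746 counts, with 2.52% to 3.14% of them on mitochondrial genes, and a count of 3, the limit that a count of 0 allows, was 0.104 to 0.129 CPM, the unit of counts scaled to library size.

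The targeted gene was checked first. *Ttk* was at 27.9 and 32.6 CPM in the control libraries and at 13.0 and 12.2 CPM in the Mps1sKO libraries, which is 41.7% of control. Its log2 fold change was -1.26 ± 0.129 (SE) with an adjusted p of 0.0461 (edgeR quasi-likelihood test). Whole testis holds germ and somatic cells, and in such bulk samples fewer cells of a type and less RNA per cell cannot be told apart. Of 12 general germ cell markers, 12 had a negative log2 fold change (median -0.41), and their summed level was 1518 and 1812 CPM in control against 1426 and 1080 CPM in Mps1sKO libraries. Of 13 tested Sertoli cell markers, 12 had a positive log2 fold change (median 0.32), with summed levels of 6939 and 7142 CPM against 8794 and 8382 CPM, while *Rhox5* had at most 1 count in a library. No marker of either list passed an adjusted p below 0.05 with edgeR, while 10 germ cell and 5 Sertoli cell markers had an unadjusted p below 0.05. The part of cell composition in the values below was not tested. These lists and those below were chosen with earlier results of these data known.

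The 8 genes spanned a wide range of levels in the control testes. On the FPKM scale, which divides by gene length and library size, *Dazl* was highest at 121 and 152 FPKM, followed by *Pum2* at 33.6 and 32.5 FPKM. *Rbm46* stood at 20.1 and 25.5 FPKM, *Dnd1* at 14.3 and 16.2 FPKM, and *Cpeb1* at 8.97 and 11.8 FPKM. *Ddx25* at 5.81 and 6.48 FPKM, *Boll* at 4.69 and 6.02 FPKM and *Elavl2* at 4.65 and 5.93 FPKM overlapped and could not be ordered. The control libraries of each of the 5 higher genes did not overlap those of its neighbours in this order, and all 8 genes were detected in all 4 libraries with at least 333 counts.

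**Figure D1:**
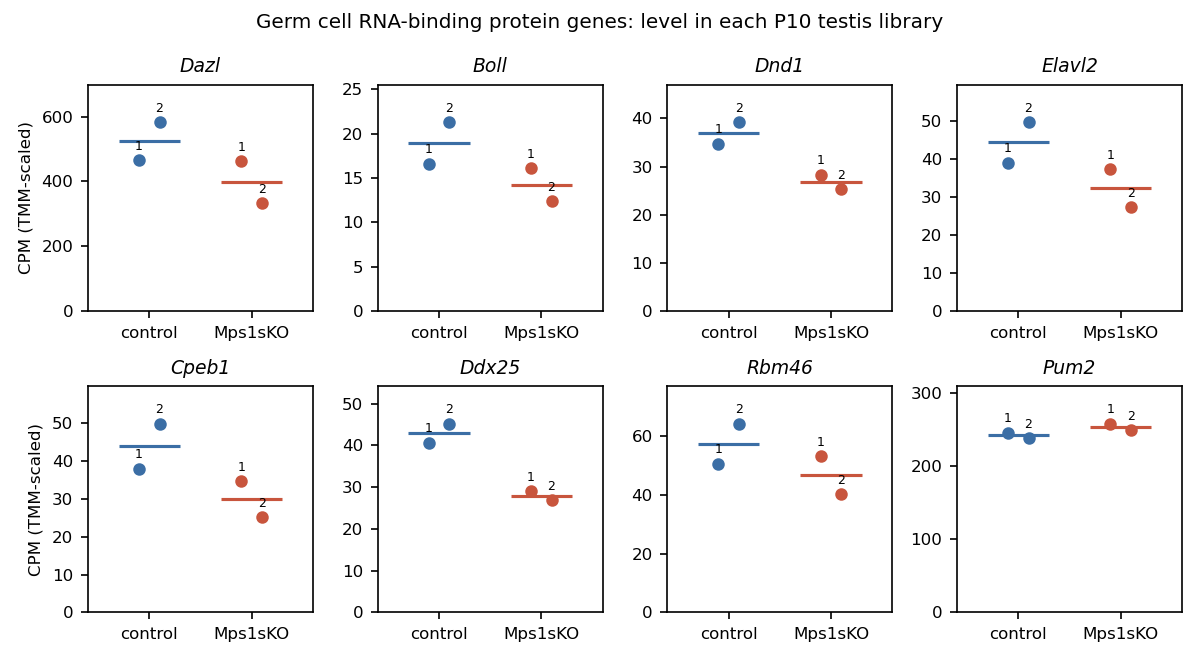
Level of each of the 8 genes in each library, in TMM-scaled CPM on a linear axis from 0, for 2 control (blue) and 2 Mps1sKO (red) libraries, numbered as labelled, with a bar at each group mean. In 7 panels control 2 is the highest point and Mps1sKO 2 the lowest, and *Pum2* lies between 238 and 258 CPM throughout.

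*Dazl* and *Boll* belong to the DAZ family, whose proteins bind mRNAs and recruit poly(A)-binding protein. *Dazl* licenses germ cells for gametogenesis and acts from early germ cells onwards, whereas *Boll*, the ancestral member, is needed late in spermatogenesis. *Dazl* (ENSMUSG00000010592, chr17:50279395-50293636, minus strand of GRCm38) was at 466 and 583 CPM in control and at 463 and 333 CPM in Mps1sKO libraries. Its first Mps1sKO library lay just under the first control library, so that the group means of 525 ± 82.9 and 398 ± 92.4 CPM (SD, n = 2) rest largely on the second library of each group. The log2 fold change of *Dazl* was -0.40 (95% interval -0.79 to -0.01), with an adjusted p of 0.533 by edgeR.

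*Boll* (ENSMUSG00000025977, chr1:55248658-55363469, minus strand), the gene with the lowest CPM of the 8, was at 16.6 and 21.3 CPM in control and at 16.1 and 12.4 CPM in Mps1sKO libraries. The libraries of the groups did not overlap, although the first libraries of each were again close. Its log2 fold change of -0.41 (95% interval -0.82 to 0.00) was close to that of *Dazl*, and its adjusted p was 0.537 by edgeR.

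*Dnd1* encodes a vertebrate germ cell protein that works with NANOS proteins and the CCR4-NOT deadenylase, and its loss causes germ cell loss and testicular teratoma. *Dnd1* (ENSMUSG00000044595, chr18:36763671-36766214, minus strand) was at 34.7 and 39.2 CPM in control and at 28.3 and 25.3 CPM in Mps1sKO libraries. Replicates lay closer to each other than the groups did, at 37.0 ± 3.20 and 26.8 ± 2.13 CPM (SD, n = 2). The log2 fold change was -0.47 ± 0.115 (SE), with an unadjusted p of 0.00410 and an adjusted p of 0.494 by edgeR. *Dnd1* shares 140 exon bases with *Wdr55* on the opposite strand, and since the strand setting of the counting is not given in the sources used here, reads there cannot be assigned with certainty. *Wdr55* was at 41.6 and 44.4 CPM in control and 35.6 and 37.2 CPM in Mps1sKO libraries, a log2 fold change of -0.24 ± 0.0967 (SE).

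*Elavl2* encodes HuB, the Hu family member that germ cells share with neurons, which binds AU-rich elements and favours the stability and translation of its mRNAs. *Elavl2* (ENSMUSG00000008489, chr4:91250763-91400785, minus strand) was at 39.0 and 49.6 CPM in control and at 37.3 and 27.2 CPM in Mps1sKO libraries. As for *Dazl*, the first libraries of the groups were close and the second libraries far apart. Its log2 fold change was -0.46 (95% interval -0.86 to -0.06), with an unadjusted p of 0.0297 and an adjusted p of 0.515 by edgeR.

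The 3 Hu paralogs gave no call. *Elavl1*, which encodes the ubiquitous HuR, was at 99.7 and 95.1 CPM in control and 107 and 93.1 CPM in Mps1sKO libraries, a log2 fold change of 0.04 (95% interval -0.19 to 0.28). *Elavl3* and *Elavl4*, better known from neurons, were low, with at most 5.03 CPM and 1.87 CPM in any library. Their log2 fold changes of -0.38 and -0.67 had unadjusted p of 0.0920 and 0.230 by edgeR.

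*Cpeb1* encodes the protein that binds the cytoplasmic polyadenylation element, represses the bound mRNA and, once phosphorylated, promotes elongation of its poly(A) tail. It is required in mouse germ cells for synaptonemal complex formation. *Cpeb1* (ENSMUSG00000025586, chr7:81347026-81455465, minus strand) was at 38.0 and 49.9 CPM in control and at 34.7 and 25.2 CPM in Mps1sKO libraries. No library of one group reached the range of the other, although the first libraries were closer than the second. The log2 fold change was -0.55 (95% interval -0.98 to -0.13), with an unadjusted p of 0.0167 and an adjusted p of 0.497 by edgeR.

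The paralogs of *Cpeb1* had smaller differences that did not pass the test. *Cpeb2* was at 34.8 and 36.9 CPM in control and 31.0 and 33.3 CPM in Mps1sKO libraries, *Cpeb4* at 43.4 and 43.6 CPM against 40.9 and 36.8 CPM, and each had a log2 fold change of -0.16. *Cpeb3* was at 10.2 and 10.6 CPM against 11.5 and 12.2 CPM, a log2 fold change of 0.19. The difference between *Cpeb1* and its paralogs was not itself tested.

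*Ddx25* encodes the gonadotropin-regulated testicular RNA helicase, a DEAD-box protein that exports mRNAs and is required for spermatids to mature, and it is also known from Leydig cells. *Ddx25* (ENSMUSG00000032101, chr9:35536647-35558528, minus strand) was at 40.7 and 45.2 CPM in control and at 29.0 and 26.9 CPM in Mps1sKO libraries. The groups were well separated, with means of 43.0 ± 3.24 and 28.0 ± 1.48 CPM (SD, n = 2). Its log2 fold change was -0.62 ± 0.107 (SE, 95% interval -0.87 to -0.37), with an unadjusted p of 0.000475 and an adjusted p of 0.494 by edgeR. *Ddx25* is in the study's own list of lower genes, which was drawn from these libraries, so that list is not independent evidence. The adjusted p of *Ddx25* was 0.0334 with DESeq2 and 0.000319 with edgeR when no filter on low counts was applied.

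The log2 fold change of *Ddx25* lay between -0.70 and -0.54 when each library was left out in turn. Without control 2 or without Mps1sKO 2 the fold was under 1.5 and the cut-offs were no longer met. Of 6 Leydig cell markers, 4 had a positive and 2 a negative log2 fold change (median 0.18), none with an unadjusted p below 0.05 by edgeR, and their summed level was 721 and 724 CPM in control against 778 and 667 CPM in Mps1sKO libraries. Among 10599 protein-coding genes with a mean of at least 10 CPM, those whose centred log2 CPM lay nearest to *Ddx25* over the 4 libraries were *Grik3* (Euclidean distance 0.0661), *Syce1* (0.0894) and *mt-Co2* (0.0950). *Syce1* encodes a protein of the central element of the synaptonemal complex, whereas *mt-Co2* is a gene of the mitochondrial genome. Whether the 3 genes share anything with *Ddx25* beyond this pattern was not tested.

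*Rbm46* encodes a germ cell protein that is required for meiotic entry and acts with the YTHDC2 and MEIOC complex on its mRNAs. *Rbm46* (ENSMUSG00000033882, chr3:82837228-82876483, minus strand) was at 50.6 and 64.2 CPM in control and at 53.2 and 40.3 CPM in Mps1sKO libraries. The groups overlapped, with the first Mps1sKO library above the first control library. The log2 fold change of *Rbm46* was -0.30 (95% interval -0.67 to 0.08), with an unadjusted p of 0.104 and an adjusted p of 0.602 by edgeR.

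*Rbm46* lies head to head with *Rbm46os*, whose annotated start is 221 bases away on the opposite strand and which shares no exon base with it. *Rbm46os* had 27 and 29 counts in control and 15 and 7 counts in Mps1sKO libraries, too few for a precise ratio, and its log2 fold change was -1.17 ± 0.452 (SE) with an adjusted p of 0.520 by edgeR. The stretch just before the start of *Rbm46* (RefSeq, GRCm38.p6, chr3:82876484-82876653, minus strand) is shown as an example and holds 4 of the motifs searched in the group. That number is not particular to *Rbm46*, since *Cpeb1*, *Ddx25* and *Pum2* hold as many in their windows and *Boll* and *Elavl2* hold more. Capitals mark, from left to right, an NFY box, a STRA8 core directly joined to an E2F core and a second NFY box. An E-box and a second STRA8 core follow. Both NFY boxes and the second STRA8 core are on the other strand.
Rbm46 upstream: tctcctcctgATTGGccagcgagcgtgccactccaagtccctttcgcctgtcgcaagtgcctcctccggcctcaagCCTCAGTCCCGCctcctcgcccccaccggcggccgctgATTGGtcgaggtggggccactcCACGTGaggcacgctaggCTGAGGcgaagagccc

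*Pum2* encodes a Pumilio protein, a repressor that binds its mRNAs with a repeat domain and brings in the CCR4-NOT deadenylase. It is made in many cell types in addition to germ cells. *Pum2* (ENSMUSG00000020594, chr12:8674134-8752581, plus strand) was at 246 and 238 CPM in control and at 258 and 249 CPM in Mps1sKO libraries. Both Mps1sKO values were above both control values, but by little, and with library totals in place of TMM scaling the groups overlapped. The log2 fold change of *Pum2* was 0.07 (95% interval -0.13 to 0.27), with an adjusted p of 0.824 by edgeR. Of the 9 tested paralogs of the group that are reported here, 6 had a negative and 3 a positive log2 fold change, and none had an unadjusted p below 0.05 by edgeR. The helicase genes *Ddx19a* and *Ddx19b* had log2 fold changes of 0.02 and -0.08. *Rbm47*, a paralog of *Rbm46*, had a log2 fold change of -0.09, and the related *A1cf* had 0 counts in all 4 libraries, which allows up to 0.129 CPM.

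Read as a group, 7 of the 8 genes had a negative log2 fold change, and the median was -0.44 against 0.00 over all tested loci. Unadjusted p was below 0.05 with a lower level for 5 of 8, *Dazl*, *Elavl2*, *Cpeb1*, *Dnd1* and *Ddx25*, against 5.37% of all tested loci. Both Mps1sKO libraries lay below both control libraries for 6 of 8, against 21.1% of all tested loci. At the study's cut-offs 1 of 8 was called, against 0.681% of loci called lower, and at an adjusted p below 0.05 the count was 0 of 8 by edgeR and limma-voom, against 0.0292% of loci called lower by edgeR. DESeq2 gave 1 of 8, *Ddx25*, against 0.134% of loci. Without a filter on low counts edgeR gave 5 of 8, the same 5 as at an unadjusted p below 0.05, against 0.712% of loci. The 8 genes were measured in the same 4 libraries and are not independent replicates. They were chosen with earlier results of these data known, so setting them beside all tested loci is not an unbiased comparison.

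**Figure D2:**
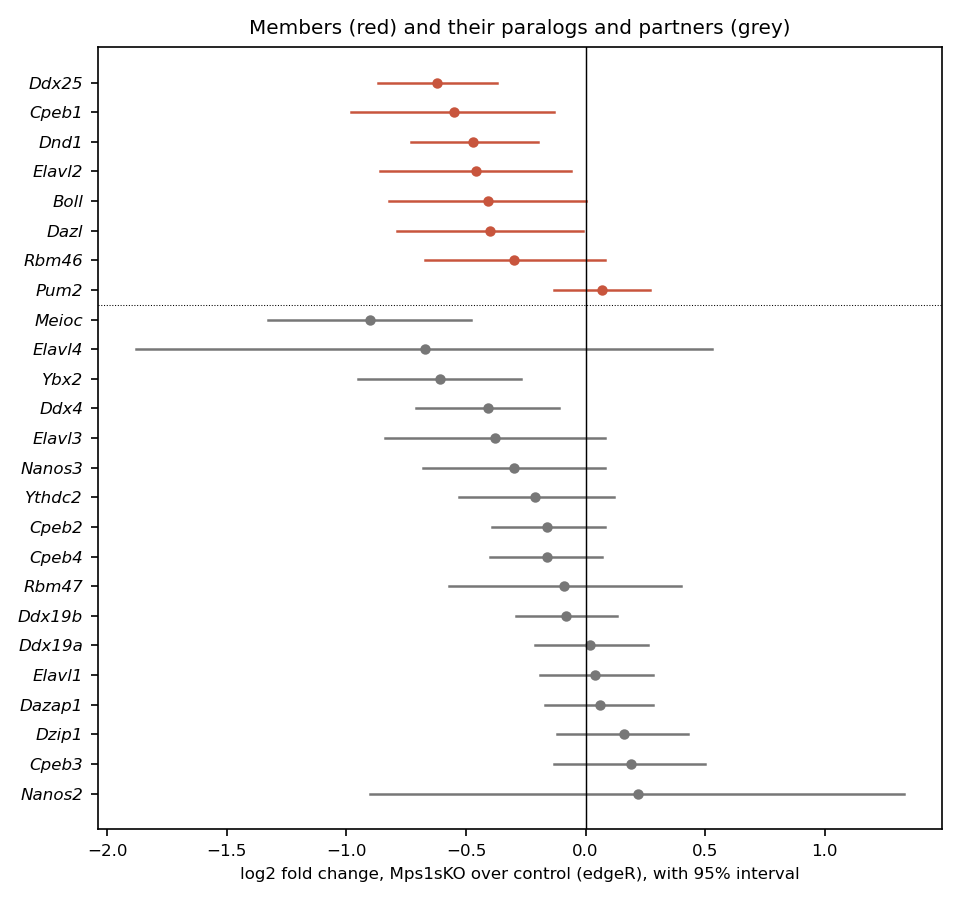
Log2 fold change of Mps1sKO over control with its 95% interval from edgeR for the 8 genes (red) and for their paralogs and partners (grey), sorted within each set. The estimates for the 8 genes run from -0.62 for *Ddx25* to 0.07 for *Pum2*, and *Meioc* lies lowest among the grey genes at -0.90.

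The libraries themselves ordered most of the group in the same way. Of the 8 genes, 7 were highest in control 2 and 7 were lowest in Mps1sKO 2, *Pum2* being the exception in each count. Between the first libraries of the groups, the log2 ratio of Mps1sKO over control was -0.01 for *Dazl*, -0.04 for *Boll*, -0.07 for *Elavl2*, -0.13 for *Cpeb1* and 0.07 for *Rbm46*. Between the second libraries it was -0.81 for *Dazl*, -0.78 for *Boll*, -0.87 for *Elavl2*, -0.99 for *Cpeb1* and -0.67 for *Rbm46*. *Ddx25*, at -0.49 and -0.75, and *Dnd1*, at -0.29 and -0.63, were lower in both comparisons. Their margin exceeded that of the genes just named between the first libraries. Between the second it did not, except that *Ddx25* exceeded *Rbm46*. The calls depended on which library was left out. Without Mps1sKO 2 the log2 fold change was -0.18 for *Dazl*, -0.23 for *Boll*, -0.25 for *Elavl2*, -0.34 for *Cpeb1* and -0.11 for *Rbm46*, and without control 2 it was -0.23, -0.22, -0.28, -0.34 and -0.12 in the same order, with 0 of 8 genes past the study's cut-offs in either fit, against 0.898% and 0.469% of loci called lower. Without Mps1sKO 1 the cut-offs called 5 of 8, *Dazl*, *Boll*, *Elavl2*, *Cpeb1* and *Ddx25*, against 1.34% of loci. Without control 1 they called 3, *Elavl2*, *Cpeb1* and *Ddx25*, against 1.51% of loci. Without control 1, *Cpeb1* and *Ddx25* also had an adjusted p of 0.0210 and 0.0269 by edgeR, where 0.587% of loci were called lower. In such a fit the lone library of a group is assumed to vary like those of the other group. The summed germ cell markers were likewise highest in control 2 and lowest in Mps1sKO 2.

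Set against the summed germ cell markers, most of these differences were small. *Dazl* amounted to 30.7% and 32.2% of that sum in control and 32.5% and 30.8% in Mps1sKO libraries. *Boll* amounted to 1.10% and 1.18% against 1.13% and 1.15%, *Elavl2* to 2.57% and 2.74% against 2.61% and 2.52%, and *Dnd1* to 2.29% and 2.17% against 1.98% and 2.34%. On this scale the groups overlapped for these 4 genes. *Cpeb1*, at 2.50% and 2.76% against 2.44% and 2.33%, and *Ddx25*, at 2.68% and 2.50% against 2.03% and 2.49%, were lower in both Mps1sKO libraries, with the nearest libraries almost level for *Ddx25*. *Rbm46*, at 3.33% and 3.55% against 3.73% in each Mps1sKO library, and *Pum2*, at 16.2% and 13.1% against 18.1% and 23.1%, were higher in both. These shares are descriptions without a test, and *Pum2* is also made outside germ cells.

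**Figure D3:**
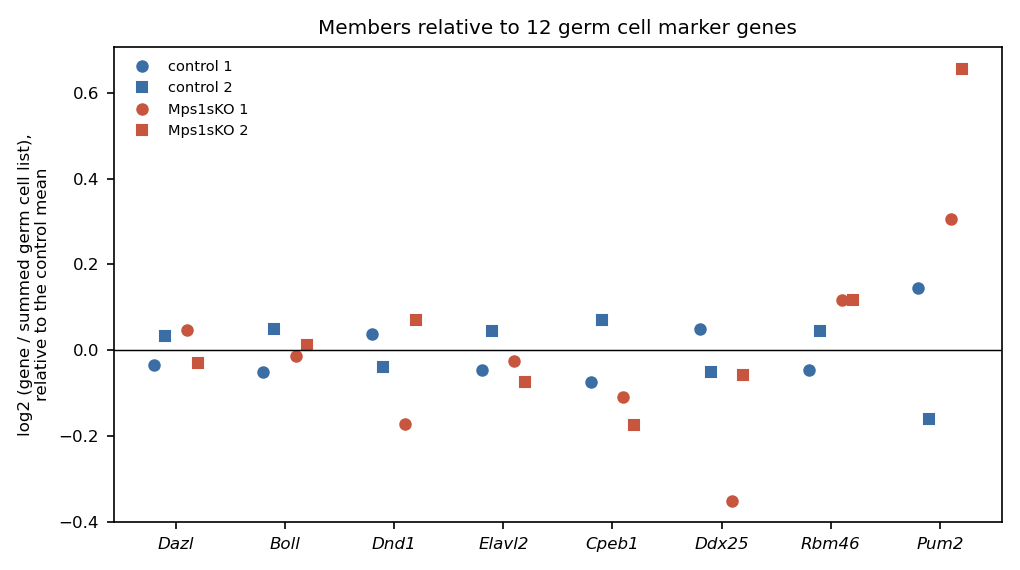
Log2 of each gene's CPM over the summed CPM of 12 germ cell markers, relative to the mean of the control libraries, for each of the 4 libraries (shapes give the library number). *Dazl*, *Boll* and *Dnd1* scatter around 0 in both groups, and both Mps1sKO points of *Elavl2* lie below 0 but overlap its control points. *Pum2* has the largest log2 ratio of group means, 0.49.

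Markers of successive germ cell stages were compared as well, since the members act at different stages. Of 7 markers of differentiating spermatogonia, 7 had a negative log2 fold change (median -0.54), with *Stra8*, the retinoic acid target at meiotic entry, at 112 and 151 CPM in control and 86.7 and 65.5 CPM in Mps1sKO libraries. Of 16 genes of meiotic prophase, 16 had a negative log2 fold change (median -0.58), and their summed level was 759 and 970 CPM against 645 and 528 CPM. Of 12 markers of undifferentiated spermatogonia, 6 were lower and 6 higher (median -0.06). The median of the 8 RNA-binding protein genes, -0.44, lay between these. No gene of the 3 lists passed an adjusted p below 0.05 with edgeR, while 4 undifferentiated, 6 differentiating and 13 meiotic markers had an unadjusted p below 0.05 and a lower level.

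Partner proteins of the group did not all follow one direction. *Meioc*, whose product prolongs the meiotic programme together with YTHDC2, was at 49.2 and 71.0 CPM in control and 35.6 and 28.7 CPM in Mps1sKO libraries. Its log2 fold change was -0.90 (95% interval -1.33 to -0.48), with an unadjusted p of 0.00132 and an adjusted p of 0.494 by edgeR. *Ythdc2* itself was at 49.5 and 61.7 CPM against 52.9 and 43.5 CPM, a log2 fold change of -0.21 with overlapping libraries. *Ybx2*, which stores mRNAs in germ cells, was at 31.2 and 41.6 CPM against 23.4 and 24.3 CPM, a log2 fold change of -0.61. The helicase gene *Ddx4* had a log2 fold change of -0.41. *Nanos3* was at 7.17 and 7.04 CPM against 6.13 and 5.41 CPM, and *Nanos2*, low at 0.522 to 1.21 CPM, had overlapping libraries. *Dazap1*, for a protein that binds DAZL, and *Dzip1* had log2 fold changes of 0.06 and 0.16. In all, 5 of the 8 partners had a negative and 3 a positive log2 fold change, 3 had an unadjusted p below 0.05, and none passed an adjusted p below 0.05 with edgeR.

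The general machinery on which these proteins act was also measured. Of 48 genes of cytoplasmic polyadenylation, deadenylation and cap binding, 29 had a negative and 19 a positive log2 fold change, the range was -0.34 to 0.17, and 2, *Cnot10* and *Cpsf4*, had an unadjusted p below 0.05 by edgeR. *Btg2*, an antiproliferative adaptor of deadenylases, was at 57.1 and 79.2 CPM in control and 53.8 and 54.0 CPM in Mps1sKO libraries and had the lowest value of the 48, a log2 fold change of -0.34 with an unadjusted p of 0.0546. *Cnot10*, a subunit of the CCR4-NOT complex, was at 165 and 170 CPM against 145 and 137 CPM, a log2 fold change of -0.25 with an unadjusted p of 0.0202. *Cpsf4*, for a subunit of the cleavage and polyadenylation complex, was at 70.8 and 72.8 CPM against 58.4 and 64.6 CPM, a log2 fold change of -0.22 with an unadjusted p of 0.0475. None of the 48 passed an adjusted p below 0.05 with edgeR.

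Of 22 other tested genes for RNA-binding proteins of germ cells, 11 had a negative and 11 a positive log2 fold change, with a median of 0.00, and 3 had an unadjusted p below 0.05. These were *Lin28b* at 43.1 and 55.2 CPM in control and 35.4 and 29.6 CPM in Mps1sKO libraries, *Rbm44* at 45.8 and 57.9 CPM against 42.5 and 33.1 CPM, and *Lin28a* at 98.5 and 94.1 CPM against 80.8 and 70.7 CPM. *Lin28a* and *Lin28b* encode repressors of let-7 maturation, and *Lin28a* marks undifferentiated spermatogonia. Their log2 fold changes were -0.35 and -0.60, and that of *Rbm44* was -0.46, all with an adjusted p above 0.05 by edgeR.

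Known target mRNAs of DAZL, CPEB1 or DDX25 were few among the tested genes. Of 7 such targets 4 passed the filter, and all 4 had a negative log2 fold change and an unadjusted p below 0.05, although none passed an adjusted p below 0.05 with edgeR. Over all tested loci, 5.37% had a lower level and an unadjusted p below 0.05 by edgeR. *Ddx4* is also counted among the germ cell markers, and *Sycp1* and *Sycp3* among the genes of meiotic prophase. *Ddx4*, *Sycp1* and *Sycp3* are therefore not separate observations. The remaining tested target, *Tex19.1*, is in none of the other lists. It was at 84.7 and 87.9 CPM in control and 78.5 and 66.0 CPM in Mps1sKO libraries, a log2 fold change of -0.26. *Sycp1*, for the transverse filament of the synaptonemal complex, was at 104 and 140 CPM in control and 91.1 and 70.3 CPM in Mps1sKO libraries. *Sycp3*, for its axial element, was at 31.7 and 39.7 CPM against 24.9 and 24.5 CPM. *Pgk2*, *Tnp2* and *Odf1*, genes of later spermatogenesis, had at most 10 counts in any library and were not tested. RNA levels give no measure of the translation that these proteins control.

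**Figure D4:**
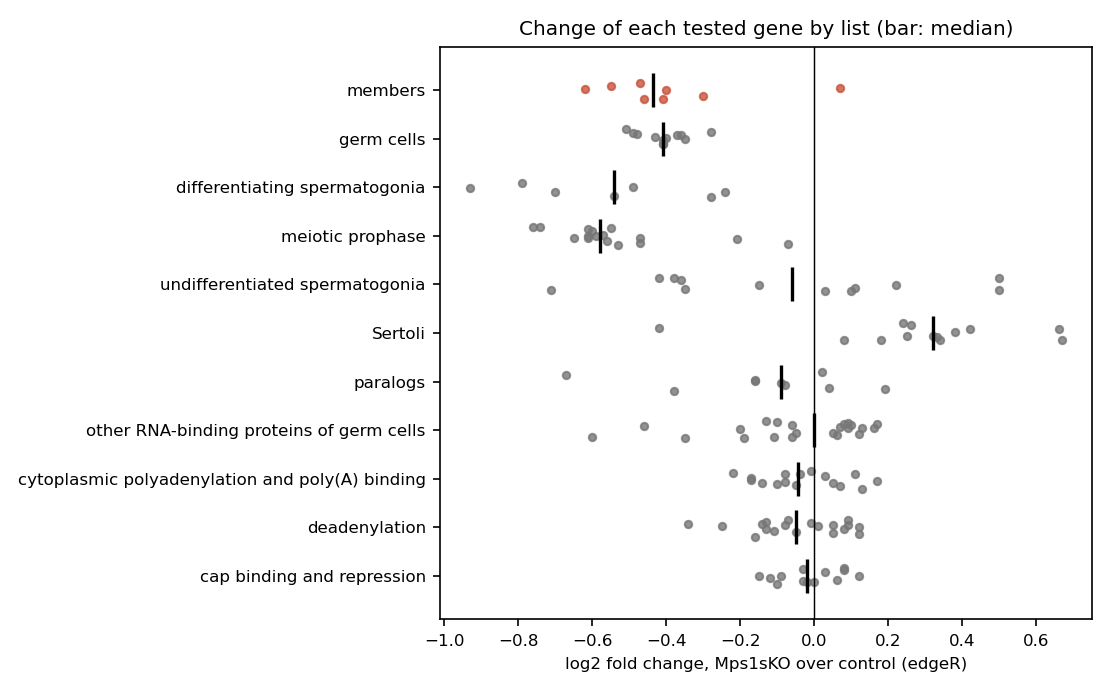
Log2 fold change of Mps1sKO over control for each tested gene of a list, with a bar at the list's median, for the 8 members (red) and for marker and regulator lists (grey). The members' median is -0.44, the germ cell median -0.41 and the Sertoli median 0.32, and the 48 genes of the 3 machinery lists stay between -0.34 and 0.17.

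Promoter sequences were compared for features that the choice of the genes did not use. RefSeq windows of 300 bases, 250 before and 50 after an annotated start, were held for 7 of the 8 genes and searched on both strands. The E-box CACGTG, bound by MYC and MAX family proteins, was in a window of 4 of the 7, *Boll*, *Cpeb1*, *Ddx25* and *Rbm46*, and in 8.09% of all 27025 genes. It began 9 bases before the start in *Boll* and 34 bases before it in *Rbm46*, and 24 bases after the start in *Cpeb1* and 37 bases after it in *Ddx25*. These 4 sites are shown with the E-box in capitals, 30 bases each on the strand of the gene, at chr1:55363745-55363774, chr7:81454717-81454746, chr9:35558421-35558450 and chr3:82876500-82876529 of GRCm38.p6.
Boll: gagcagagtttgCACGTGggaacttgtctt
Cpeb1: aaaaatagtgccCACGTGtgtgcgcgtccc
Ddx25: ccgcgcgggggtggcagCACGTGccagggg
Rbm46: gtggggccactcCACGTGaggcacgctagg
Beyond the E-box itself the 4 sites have different flanks. The log2 fold changes of these 4 genes were -0.41, -0.55, -0.62 and -0.30 in the same order. *Dazl*, *Elavl2* and *Pum2*, without an E-box in their windows, had -0.40, -0.46 and 0.07. Whether the E-box goes with the change was not tested.

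The other motifs, apart from the cyclic AMP element, were common in promoters at large. The E2F core TCCCGC was in a window of 6 of the 7 genes, all but *Dazl*, and in 22.0% of all genes. The STRA8 core CCTCAG was found in 5, *Dazl*, *Elavl2*, *Cpeb1*, *Pum2* and *Rbm46*, and in 29.4% of all genes. The log2 fold changes of these 5 were -0.40, -0.46, -0.55, 0.07 and -0.30 in the same order. *Boll* and *Ddx25*, without the core in their windows, had -0.41 and -0.62. Whether the core goes with the change was not tested. The NFY box CCAAT was in 5 of 7 and 41.1% of all genes, the SP box GGGCGG in 5 of 7 and 38.2%, the MYB cores CAACNG and TAACNG in 3 of 7 and 53.1%, and the cyclic AMP element TGACGTCA in 0 of 7 and 2.03%. *Boll*, *Elavl2* and *Pum2* have several windows, and a motif in any of them was counted, which raises their share. The windows of the 7 genes held 10 to 44 CpG dinucleotides against a median of 7 over all windows. A match is a description of letters, and no binding was measured.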

How the data were processed

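RNA sequencing (150-base paired reads) of P10 testes was analysed in 4 libraries, with groups taken from the labelled genotype. For 55820 loci, the authors deposited raw counts per gene, without normalization, and FPKM values, which are scaled by gene length and library size. The submitters' processing notes name HISAT2 2.0.5, featureCounts, DESeq2 1.16.1 and mm10, and the strand setting is not given in the sources used here. Identifiers and coordinates were checked against GENCODE M21, which held 55450 of 55536 annotated identifiers.

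Counts were tested with edgeR 4.0.16 (filterByExpr, TMM, quasi-likelihood F test on genotype, two-sided) in R 4.3.3, and p-values were adjusted by Benjamini and Hochberg over 20561 loci. The script was tested on simulated data. An exact permutation test of 2 against 2 libraries cannot go below p = 0.333 and was not used. CPM values are TMM-scaled. The study used DESeq2 on genotype, which was run as an alternative (1.42.0), as were limma-voom (3.58.1), DESeq2 size factors in edgeR, library totals, all loci with any count, a minimum of 10 counts in each library, the replicate number as a block and each library left out in turn. A block of crossed pairs was added after seeing the data.

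All 8 genes were named, with *Ttk*, their paralogs and partners (1 paralog is not reported here), at most 3 genes of each other list by size of the log2 fold change at a mean of at least 1 CPM, and the 3 genes nearest to *Ddx25*. *Rhox5*, *Pgk2*, *Tnp2*, *Odf1*, *Prm1*, *Wdr55* and *Rbm46os* were named in addition, for counts at the floor, an overlap or a neighbouring start. *Tex19.1* was named as the tested target outside the other lists. The members and lists were chosen with earlier results of these data known. Promoters came from RefSeq windows on GRCm38.p6, and protein sequences were not analysed here.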

Additional observations from a re-analysis of the deposited data

How the results depend on the processing

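The log2 fold changes of the 8 genes kept their direction in all 88 values from the alternatives. Of these, 75 kept their side of the threshold of 0.05 in adjusted p and 13 passed it where the reported fit did not. Of the 13, 5 came from a block of crossed pairs chosen after seeing the data and 5 from edgeR without a filter on low counts. At an adjusted p below 0.05 the count, 0 in the reported fit by edgeR with 5 at an unadjusted p below 0.05, was 5 without a filter on low counts and 1 with DESeq2, and it lay between 0 and 2 when each library was left out in turn. At the study's cut-offs the count of 1 lay between 0 and 5 when each library was left out. The cause was not tested. The count of genes whose libraries did not overlap in either direction, 7, was 6 with library totals in place of TMM scaling. With TMM scaling 6 of the genes were lower in both Mps1sKO libraries and *Pum2* was higher. Of all 20561 tested loci, 4333 were lower and 4176 were higher in both. Of the log2 fold changes, that of *Dazl* ranged from -0.66 to -0.18 when single libraries were dropped, that of *Rbm46* between -0.51 and -0.11, that of *Dnd1* between -0.55 and -0.37 and that of *Pum2* between 0.04 and 0.10.

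Deviations of same-numbered libraries from their group means had a correlation of -0.19, and the labels do not say that a number marks a shared litter or day, so the libraries were not treated as paired. With the replicate number as a block, 0 of 8 genes passed an adjusted p below 0.05 and 1 of 8 passed the study's cut-offs. The share of all tested loci called in that fit is not reported here. With crossed pairs as the block, chosen after seeing the data, the counts were 5 and 1, against 1.48% and 0.982% of all tested loci called lower.

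With 2 libraries in each group, adjusted p-values by edgeR rest on a spread for each gene that was estimated partly from other genes. In the estimate of this spread that preceded the quasi-likelihood test, the weight given to the other genes was 5.64 prior degrees of freedom. The prior degrees of freedom of the test itself are not reported here. Among the 8 genes the SE of the log2 fold change ran from 0.0850 for *Pum2* to 0.182 for *Cpeb1*. Summarised as a single value for all genes, the biological coefficient of variation came to 0.106. The 8 genes had at least 333 counts in each library, and the effect of depth on their calls was not tested. *Rbm46os* had as few as 7 counts, and such low counts limit its ratio.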

Other observations

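Somatic markers other than those of Sertoli and Leydig cells had small medians in the same libraries. Of 6 peritubular myoid markers, 5 had a negative log2 fold change (median -0.10), with *Acta2*, for smooth muscle actin, at 593 and 586 CPM in control and 558 and 525 CPM in Mps1sKO libraries. The macrophage and endothelial medians were -0.02 and 0.11 over 8 genes each, and no gene of these lists had an unadjusted p below 0.05 by edgeR.

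Of 12 genes of late spermatocytes and spermatids, 6 had enough counts to be tested. *Prm1*, for a protamine, had 5, 11, 8 and 7 counts in the order control 1, control 2, Mps1sKO 1 and Mps1sKO 2. *Boll*, needed late in spermatogenesis, was at 448, 614, 374 and 333 counts in the same order. *Hspa2*, for a heat shock protein of spermatocytes, was the highest of the list, at 37.7 and 38.6 CPM in control and 32.5 and 32.4 CPM in Mps1sKO libraries. *Piwil1*, for the piRNA-binding protein MIWI, was at 9.32 and 9.78 CPM in control and 8.46 and 6.49 CPM in Mps1sKO libraries.

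*Rbm46os* had a larger difference than *Rbm46*, with which it shares a start region, at 45.2% of control against 81.4%, but the difference between these values was not tested.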
